A study of Mus musculus with 5 samples.

Results

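The CD28 family is the small group of receptors by which T cells read the co-stimulatory and co-inhibitory ligands of the B7 family and of herpesvirus entry mediator (HVEM). Its genes were followed here in Tregs (regulatory T cells), which carry the transcription factor Foxp3 and hold immune responses in check. The 5 members, Ctla4, Cd28, Icos, Pdcd1 and Btla, were found by their symbols among the 24084 genes of the count table, and all 5 passed the filter on low counts that left 11437 genes for testing. They were compared between 2 libraries of Tregs from skin and 3 libraries of Tregs from skin-draining lymph nodes. Every library was from Foxp3-DTR/GFP mice (strain label Foxp3-DTR) at 13 days of age. In this line the Foxp3 gene also expresses the receptor for diphtheria toxin, with GFP. Both tissues carried the same allele, and no other treatment is named in the labels. Sort gates, cell numbers and mice per library were not stated in the sources used. Nothing there says that libraries came from separate mice, and the p-values rest only on how far the libraries differ, which could be technical variation. In such bulk libraries fewer cells with a transcript and less of it per cell cannot be told apart.

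CD28 binds CD80 and CD86 on antigen-presenting cells and sends the co-stimulatory signal that T cells, and the development and upkeep of Tregs, depend on. CTLA-4 binds the same 2 ligands more tightly and removes them from the presenting cell, a main route of Treg suppression, and it cycles rapidly between the surface and endosomes. ICOS binds ICOS ligand and is a co-stimulatory receptor of activated T cells and of effector Tregs in tissues. PD-1, encoded by Pdcd1, binds PD-L1 (Cd274) and PD-L2 (Pdcd1lg2) and restrains antigen receptor and CD28 signals through the phosphatase SHP-2. BTLA binds HVEM (Tnfrsf14), a TNF receptor family protein rather than a B7 ligand, and is also an inhibitory receptor, found on lymphocytes and some dendritic cells.

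Gene counts per library were 10787378 and 10468795 in skin and ranged from 12305644 to 14595018 in lymph node. Fewer genes had a count in skin (9894 and 9192) than in lymph node (12173 to 12540). The 2 skin libraries resembled each other less (Pearson r of log2 CPM across genes 0.612, a description since genes are not independent) than any 2 lymph node libraries did (0.902 to 0.910). Of the 6 genes listed as defining Tregs, all had counts in every library, with summed levels of 5511 and 6583 CPM in skin against 6255 to 6937 CPM in lymph node. Foxp3 was at 78.0 and 118 CPM in skin against 89.6 to 99.8 CPM in lymph node, and Il2ra (CD25) and Cd4 did not pass the threshold either. Ikzf2 (Helios) rose in skin (log2 fold change 0.89, edgeR adjusted p = 0.0484). The T cell receptor complex genes Cd3e, at 1059 and 1233 CPM in skin against 1802 to 2291 CPM in lymph node (log2 fold change -0.83, edgeR adjusted p = 0.0545), and Cd3d, at 676 and 722 CPM in skin against 1079 to 1606 CPM in lymph node (log2 fold change -0.90, edgeR adjusted p = 0.0659), did not overlap between tissues. Every skin value lay below every lymph node value for 33.5% of tested genes. DESeq2 called 2 of the 6 genes lower and 1 higher, against 17.7% lower and 10.8% higher over all tested genes. The 19 listed myeloid markers summed to 2300 and 2376 CPM in skin against 123 to 201 CPM in lymph node, with 8 of 16 tested members higher, 0 lower and 6 of the 19 (Cd163, Cd14, Fcgr1, Cd209a, Clec10a and Sirpa) without a count in any lymph node library. The 10 B cell markers summed to 22.1 and 72.3 CPM in skin, all of it Cd79b with the other 9 at 0, against 93.0 to 259 CPM in lymph node. The 8 keratinocyte markers summed to 105 and 199 CPM in skin against 5.50 to 16.2 CPM in lymph node. In any skin library, at most 22.2 CPM came from each of the CD8 T and NK cell, gamma delta T cell and innate lymphoid, mast cell and fibroblast lists. In lymph node the CD8 T and NK cell list summed to 44.5 to 69.5 CPM, against 22.2 and 0 CPM in skin. Its member Cd8a was called lower in skin (edgeR adjusted p = 0.0491). The gamma delta T cell and innate lymphoid, mast cell and fibroblast lists summed to at most 21.9 CPM in any lymph node library. Trdc, listed for gamma delta T cells, had no row in the count table. CPM are counts scaled to a common library size, with TMM scaling for differences in RNA make-up between libraries.

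Cd28, Ctla4 and Icos lie in this order on the forward strand of chromosome 1, within 283.5 kb (GENCODE M21, build GRCm38, which is the mm10 named in the submitters' processing notes). Cd28 spans 60716800 to 60773359, Ctla4 60887000 to 60915832 and Icos 60977927 to 61000320, with gaps of 113.6 kb and 62.1 kb between them. Pdcd1 lies on the reverse strand of the same chromosome at 94038305 to 94052553, and Btla on the forward strand of chromosome 16 at 45224315 to 45257670. A ribosomal protein pseudogene (Rpl18-ps1) lies within Ctla4 and an unconfirmed transcript (Gm37039) within Icos. Neither has a row in the count table. RefSeq (GRCm38.p6) gave the promoter, 250 bases before to 50 bases after the annotated start, for 3 of the 5 members. The Ctla4 window is built on a start 22025 bases inside the GENCODE gene span, which is the start of 1 of its 3 GENCODE transcripts. The Btla window's start lies 22 bases inside its span, and the Pdcd1 window's start is that of the gene. Windows are shown for every member with such an entry. In skin, Ctla4 was higher, Btla lower and Pdcd1 not distinguishable. The windows are chr1:60908775-60909074 (forward strand) for Ctla4, chr16:45224087-45224386 (forward strand) for Btla and chr1:94052504-94052803 (reverse strand) for Pdcd1. Capitals mark every match, on either strand, to TATAAA (the TATA box), GGAAA (the core bound by NFAT factors, also part of many ETS sites), TGANTCA (AP-1), TGTTTAC (forkhead factors) and GGGCGG (the GC box).
Ctla4: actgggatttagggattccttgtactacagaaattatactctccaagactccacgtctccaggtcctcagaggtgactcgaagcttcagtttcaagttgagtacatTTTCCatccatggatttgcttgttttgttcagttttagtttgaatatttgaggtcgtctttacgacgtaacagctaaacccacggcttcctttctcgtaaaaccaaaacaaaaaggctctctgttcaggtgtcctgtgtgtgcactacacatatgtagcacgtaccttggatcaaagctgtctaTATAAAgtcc
Btla: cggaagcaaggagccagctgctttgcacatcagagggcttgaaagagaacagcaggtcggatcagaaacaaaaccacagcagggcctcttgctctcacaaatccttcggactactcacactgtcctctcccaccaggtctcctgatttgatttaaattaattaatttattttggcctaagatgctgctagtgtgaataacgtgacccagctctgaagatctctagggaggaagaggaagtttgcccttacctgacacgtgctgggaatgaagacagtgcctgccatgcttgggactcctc
Pdcd1: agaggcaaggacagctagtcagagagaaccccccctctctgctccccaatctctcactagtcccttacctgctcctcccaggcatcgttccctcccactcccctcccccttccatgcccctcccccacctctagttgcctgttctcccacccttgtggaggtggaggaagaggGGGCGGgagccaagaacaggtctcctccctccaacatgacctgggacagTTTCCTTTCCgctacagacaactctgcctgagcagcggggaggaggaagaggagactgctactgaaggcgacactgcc
The Ctla4 window held 1 NFAT core, starting 144 bases before the annotated start, and 1 TATA box, starting at base 41 after it. The Pdcd1 window held 2 NFAT cores close to its start and 1 GC box, and the Btla window held none of the 5 motifs. Over all 32851 promoter windows of the same length, 61.3% held the NFAT core, 35.7% the GC box, 13.6% the TATA box, 7.81% the AP-1 site and 3.65% the forkhead site. These matches describe the letters of the windows.

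Skin Tregs carried more Icos and Ctla4, less Btla, and levels of Cd28 and Pdcd1 that did not differ beyond the spread between libraries. By edgeR's quasi-likelihood test with Benjamini-Hochberg adjustment over all 11437 genes, 2 of the 5 members were higher (275 of all tested genes, 2.4%, were), 1 was lower (606, 5.3%) and 2 did not pass an adjusted p of 0.05. In all, 3 of 5 members were called, against 881 (7.7%) of the genes tested. An unadjusted edgeR p under 0.05, DESeq2 and limma-voom each also gave 2 members higher and 1 lower. Over all tested genes the unadjusted p gave 10.1% higher and 19.4% lower, DESeq2 10.8% higher and 17.7% lower, and limma-voom 4.95% higher and 14.6% lower. The median log2 fold change was 0.09 over the 5 members and -0.21 over all genes tested. All 5 members averaged above 5 on the log2 CPM scale. Over the 5742 tested genes averaging at least 5 the median was 0.04, with 239 called higher and 156 lower by edgeR. Together the 5 genes took 0.718 and 0.647% of all gene counts in the skin libraries against 0.302 to 0.315% in the lymph node libraries, with 95% Wilson intervals that cover counting error only of 0.713 to 0.723% and 0.643 to 0.652% in skin.

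**Figure D1:**
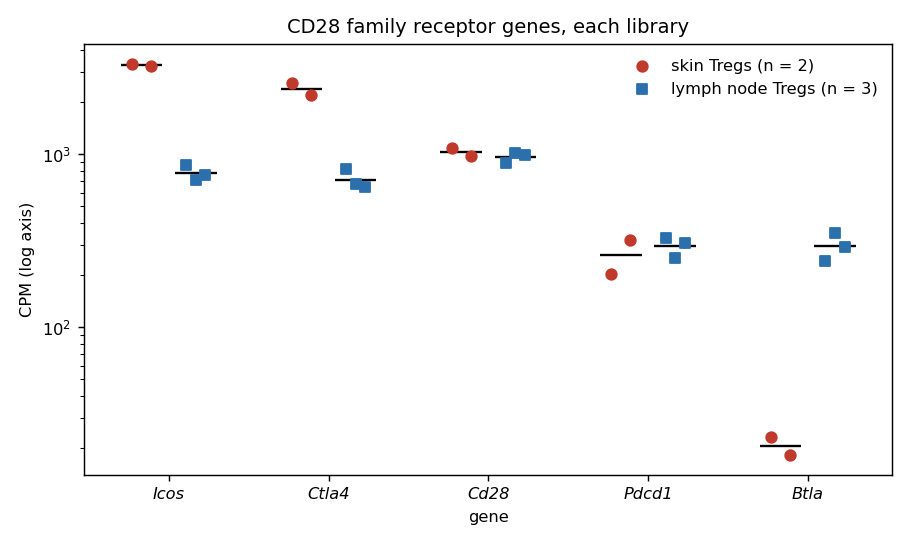
Level of each receptor gene in each library in CPM on a log axis, skin Tregs as circles and lymph node Tregs as squares, with horizontal lines at the group means. Icos and Ctla4 lie above and Btla below every lymph node value in both skin libraries, while the groups overlap for Cd28 and Pdcd1. Over all tested genes, 16.8% lay wholly above and 33.5% wholly below in this way.

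Of the co-stimulatory receptors, Icos changed most. Icos was at 3354 and 3259 CPM in the skin libraries, against 872, 715 and 757 CPM in the lymph node libraries. Both skin values lay far above every lymph node value and close to each other. The mean was 3307 ± 67.4 CPM in skin (SD, n = 2) and 781 ± 81.2 CPM in lymph node (SD, n = 3), 4.23-fold higher in skin (log2 fold change 2.08, SE 0.16, 95% interval 1.67 to 2.49, edgeR adjusted p = 0.0209). By unadjusted p it was the 14th of the 11437 genes tested.

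Cd28 was at 1090 and 975 CPM in the skin libraries, against 897, 1019 and 997 CPM in the lymph node libraries. One skin library lay above and the other within the lymph node values. The mean was 1032 ± 81.5 CPM in skin (SD, n = 2) and 971 ± 65.3 CPM in lymph node (SD, n = 3), a log2 fold change of 0.09 (SE 0.17, edgeR adjusted p = 0.794). The 95% interval of that difference, -0.33 to 0.51, excludes a change of the size seen for either of its neighbours Ctla4 and Icos.

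Ctla4, the inhibitory member that shares its ligands with Cd28, was at 2582 and 2198 CPM in the skin libraries, against 822, 677 and 645 CPM in the lymph node libraries. The lower skin value was still above the highest lymph node value. The mean was 2390 ± 272 CPM in skin (SD, n = 2) and 715 ± 94.3 CPM in lymph node (SD, n = 3), 3.34-fold higher in skin (log2 fold change 1.74, SE 0.19, 95% interval 1.27 to 2.21, edgeR adjusted p = 0.0271).

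Pdcd1 was at 203 and 318 CPM in the skin libraries, against 328, 253 and 308 CPM in the lymph node libraries. Skin library 1 lay below the lymph node values and skin library 2 among them, so the groups overlapped. The mean was 260.1 ± 81.3 CPM in skin (SD, n = 2) and 296 ± 38.97 CPM in lymph node (SD, n = 3), a log2 fold change of -0.19 (SE 0.29, 95% interval -0.91 to 0.54, edgeR adjusted p = 0.738). Without skin library 1 its sign turned (log2 fold change 0.10, edgeR adjusted p = 0.781).

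Btla moved the other way. It was at 23.0 and 18.2 CPM in the skin libraries (246 and 182 counts), against 241, 351 and 291 CPM in the lymph node libraries. Both skin values were more than 10-fold under the lowest lymph node value. The mean was 20.6 ± 3.43 CPM in skin (SD, n = 2) and 294 ± 55.0 CPM in lymph node (SD, n = 3), 14.3-fold lower in skin (log2 fold change -3.84, SE 0.35, 95% interval -4.70 to -2.97, edgeR adjusted p = 0.0224). B cells also express Btla, and the B cell marker sums were 22.1 and 72.3 CPM in the skin libraries against 133, 93.0 and 259 CPM in the lymph node libraries. Cd79b made up all of the skin sums and 119, 61.7 and 120 CPM of the lymph node sums. The part of B cells in the difference was not tested.

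The calls rested on having all 3 lymph node libraries. Leaving out any 1 lymph node library ended the edgeR calls of Ctla4, Icos and Btla (adjusted p between 0.113 and 0.115), as it did for every gene in the table, while their log2 fold changes stayed within 1.67 to 1.85, 2.03 to 2.17 and -3.96 to -3.69. Leaving out either skin library kept the 3 calls (adjusted p between 0.000224 and 0.000779), with the remaining skin library taken to vary like the lymph node ones. Myeloid markers were higher in both skin libraries. Their part in the Ctla4 and Icos results was not tested.

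**Figure D2:**
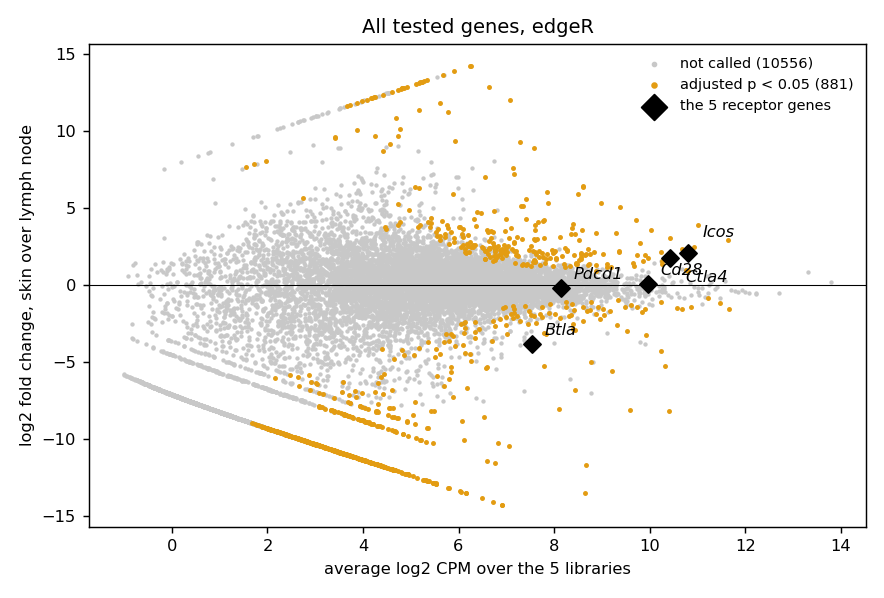
Log2 fold change of skin over lymph node Tregs against average log2 CPM for the 11437 genes tested, with the 881 called genes in orange and the 5 receptor genes as black diamonds. Icos and Ctla4 lie above 0 at log2 fold changes of 2.08 and 1.74, Btla lies at a log2 fold change of -3.84, and Cd28 and Pdcd1 lie near 0.

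The receptor genes varied less between the skin libraries than the median gene of this dataset. Between the 2 skin libraries the log2 CPM of Icos differed by 0.04, Cd28 by 0.16, Ctla4 by 0.23, Btla by 0.34 and Pdcd1 by 0.65, where the median was 0.98 over genes averaging at least 5 on the log2 CPM scale. Over the 3 lymph node libraries their log2 ranges were 0.18 (Cd28) to 0.54 (Btla), where that median was 0.54. The members averaged 7.53 to 10.8 on that scale, and no genes matched for level were compared. These spreads are descriptions and no test was made of them.

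Levels of different genes were compared per kb of merged exons (CPM per kb, or RPKM), with lengths from GENCODE for all 5 members and 10941 of the 11437 tested genes. In skin, Ctla4 led at 1026 ± 117 RPKM and Icos followed at 964 ± 19.7 RPKM, and their order turned between the 2 libraries. Cd28 came next at 169 ± 13.3 RPKM and Pdcd1 at 135 ± 42.1 RPKM, also with overlapping values, and Btla was last at 6.07 ± 1.01 RPKM (SD, n = 2 for each). In lymph node the order was Ctla4 at 307 ± 40.5 RPKM, Icos at 228 ± 23.7 RPKM, Cd28 at 159 ± 10.7 RPKM, Pdcd1 at 153 ± 20.2 RPKM and Btla at 86.7 ± 16.2 RPKM (SD, n = 3 for each). There only the neighbours Cd28 and Pdcd1 overlapped. With the length of the longest coding transcript, an alternative added after the data were seen, the skin values of Ctla4 and Icos no longer overlapped, nor did those of Cd28 and Pdcd1 in either tissue, while the lymph node values of Icos and Cd28 did. By mean RPKM, Ctla4 was the 23rd and Icos the 26th of the 10941 genes in skin Tregs, against 106th and 163rd in lymph node Tregs. Btla was 5695th in skin Tregs and 568th in lymph node Tregs.

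The make-up of the family thus differed between tissues. Of the summed RPKM of the 5 genes, Ctla4 and Icos held 46.6 and 41.2% in skin library 1 and 42.4 and 42.7% in skin library 2, against 30.6 to 35.5% for Ctla4 and 23.2 to 25.6% for Icos in the lymph node libraries. Cd28 held 7.49 and 7.16% in skin against 14.7 to 18.5% in lymph node, although its own level did not differ detectably. Pdcd1 held 4.42 and 7.41% in skin against 14.5 to 17.6% in lymph node. Btla held 0.285 and 0.241% in skin against 7.14 to 11.5% in lymph node. No interval is given for these shares, since they are made of length-scaled values.

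**Figure D3:**
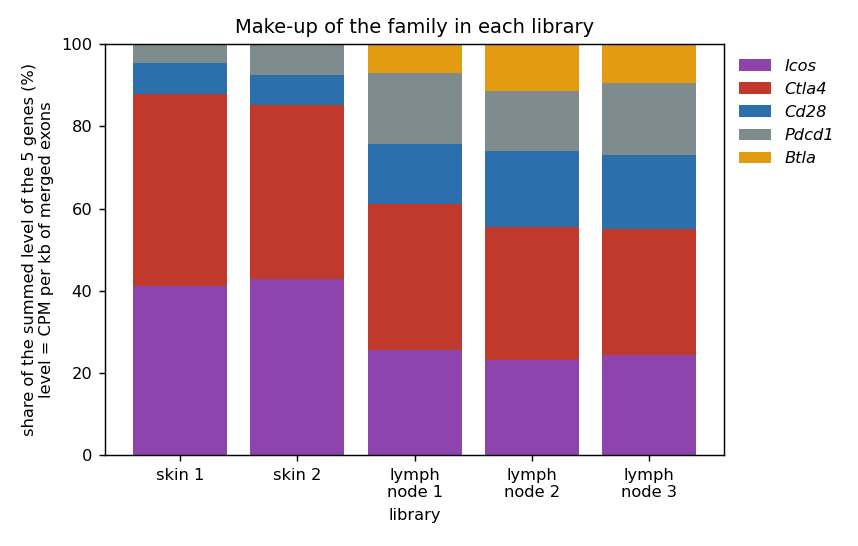
Share of each receptor gene in the summed level of the 5 genes (CPM per kb of merged exons) in each library. Icos and Ctla4 together fill most of each skin bar, and the Btla segment is too thin to see there, at 0.285 and 0.241%, against 7.14 to 11.5% in lymph node.

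Ratios between 2 members of 1 library do not depend on how libraries are scaled, and 5 such pairs were compared on counts. The ratio of Ctla4 to Cd28 counts was 2.37 and 2.25 in the skin libraries, against 0.916, 0.664 and 0.646 in the lymph node libraries, so Ctla4 counts exceeded Cd28 counts in every skin library and in no lymph node library. On the log2 scale this ratio averaged 1.21 ± 0.05 in skin (SD, n = 2) and -0.45 ± 0.28 in lymph node (SD, n = 3), a difference of 1.66. The ratio of Icos to Cd28 counts was 3.08 and 3.34 in skin against 0.972, 0.701 and 0.759 in lymph node, with log2 means of 1.68 ± 0.08 in skin (SD, n = 2) and -0.32 ± 0.25 in lymph node (SD, n = 3). These are ratios of counts, which also carry the difference in gene length. Only their change between tissues compares like with like.

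The difference between the changes of Icos and Ctla4 was the smallest of the 5 pairs. The ratio of Ctla4 to Icos counts was 0.770 and 0.674 in skin against 0.943, 0.947 and 0.852 in lymph node, a log2 difference of -0.34. Pdcd1 counts were 0.0604 and 0.0975 of Icos counts in skin against 0.376, 0.353 and 0.407 in lymph node (log2 difference -2.30). Btla counts were 0.0211 and 0.0186 of Cd28 counts in skin against 0.269, 0.344 and 0.292 in lymph node (log2 difference -3.92). For all 5 pairs the tissues did not overlap, and the two-sided exact permutation test gave p = 0.1 for each, which is the smallest p that 2 against 3 libraries allow and 0.1 again after adjustment over the 5 pairs. None of these ratios could therefore reach 0.05.

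**Figure D4:**
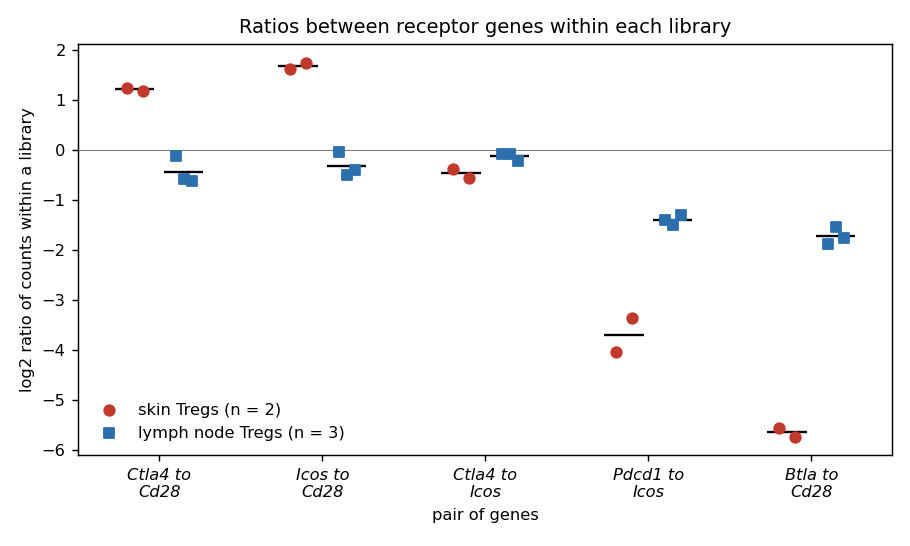
Log2 ratio of counts of 2 receptor genes within each library, skin Tregs as circles and lymph node Tregs as squares, with lines at the group means and 0 marking equal counts. The skin and lymph node points do not overlap for any of the 5 pairs, and the gap is smallest for Ctla4 to Icos.

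Raph1, the nearest annotated protein-coding gene before Cd28 (chromosome 1, 60482292 to 60567104, reverse strand), also rose in skin. It encodes an actin regulator of the lamellipodin family and was looked at for its position. It was at 358 and 505 CPM in the skin libraries, against 24.2, 36.1 and 47.2 CPM in the lymph node libraries (log2 fold change 3.59, SE 0.39, edgeR adjusted p = 0.0271). Abi2, the next gene outwards, was at 95.2 and 36.1 CPM in skin against 27.5, 48.0 and 42.9 CPM in lymph node (edgeR adjusted p = 0.526). Along this stretch Raph1, Ctla4 and Icos rose, while Abi2 and Cd28 did not pass the test. Genes beyond Icos were not looked at.

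Among the 6 ligand genes of the receptors, edgeR called 0 higher and 0 lower, with 0 higher and 2 lower at an unadjusted p under 0.05 (median log2 fold change -0.60). DESeq2 called 1 higher and 1 lower, and limma-voom 0 higher and 1 lower. Among all tested genes, 10.1% were higher and 19.4% lower at that unadjusted p. The same rates were 10.8% and 17.7% by DESeq2, and 4.95% and 14.6% by limma-voom. Cd86, the most abundant of them in lymph node, was at 34.9 and 95.4 CPM in skin against 197, 168 and 148 CPM in lymph node (log2 fold change -1.39, edgeR adjusted p = 0.145). Its skin values lay below every lymph node value, as they did for 33.5% of tested genes. Without skin library 2 its log2 fold change was -2.30 (edgeR adjusted p = 0.00246), and without skin library 1 it was -0.85 (edgeR adjusted p = 0.0657). Cd80, its low-level companion, was at 12.5 and 0 CPM in skin against 7.94, 1.10 and 10.1 CPM in lymph node. Pdcd1lg2 was at 77.8 and 74.5 CPM in skin against 51.1, 34.7 and 39.9 CPM in lymph node, without overlap (log2 fold change 0.86, edgeR adjusted p = 0.297; every skin value lay above every lymph node value for 16.8% of tested genes). DESeq2 called it higher (adjusted p = 0.0295). Antigen-presenting cells are the usual source of these ligands, and the myeloid marker sums were 2300 and 2376 CPM in skin against 123 to 201 CPM in lymph node. Their part in the ligand values was not tested.

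Of the other ligands, 2 had counts in 1 skin library and next to none in the other. Icosl, the ICOS ligand gene, was at 0 and 111 CPM in skin against 23.2, 24.7 and 27.5 CPM in lymph node. Cd274 was at 96.8 and 0.0999 CPM in skin against 99.6, 132 and 99.7 CPM in lymph node. Without skin library 1, Cd274 was called lower (log2 fold change -9.98, edgeR adjusted p = 0.000124), and without skin library 2 it was not (log2 fold change -0.20, edgeR adjusted p = 0.646). A direction cannot be given for these 2 genes from 2 such libraries. Tnfrsf14, which encodes the BTLA ligand HVEM, had no count in either skin library, against 4.35, 20.9 and 10.1 CPM in lymph node, and was at least 81.3-fold lower in skin when set against a floor of 3 counts over both skin libraries (edgeR adjusted p = 0.0533, not past the threshold). Without lymph node library 2 that bound is 49.7-fold. The bound covers counting only. A gene can be at 96.8 CPM in 1 skin library and 0.0999 CPM in the other, as Cd274 was. Tnfrsf14 passed with the stricter filter (edgeR adjusted p = 0.0374), with DESeq2 (adjusted p = 5.76e-05) and with limma-voom (adjusted p = 0.00882). Its log2 fold change was -10.25 without skin library 1 and -10.27 without skin library 2, but -7.63 with limma-voom. With no count in skin, such sizes depend on how a fit treats zeros.

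The wider HVEM and B7 network held 2 called genes, both lower in skin, of 4 tested in edgeR (median log2 fold change -3.05). Of all tested genes 5.3% were called lower. At an unadjusted p under 0.05 there were 4 lower, and DESeq2 called 3 lower and limma-voom 2. Over all tested genes those rates were 19.4%, 17.7% and 14.6% lower. None of the list was higher at an unadjusted p under 0.05 or by DESeq2 or limma-voom. Cd160, a receptor that binds HVEM at a site shared with BTLA, had no count in the skin libraries, against 128, 107 and 118 CPM in lymph node (edgeR adjusted p = 0.0224). Against the same floor of 3 counts it was at least 813-fold lower in skin, a bound that again covers counting only. The CD8 T and NK cell markers summed to 44.5 to 69.5 CPM in lymph node against 22.2 and 0 CPM in skin. Their part in the Cd160 difference was not tested. Lta, which encodes lymphotoxin alpha, also an HVEM ligand, was at 42.4 and 63.2 CPM in skin against 295, 279 and 304 CPM in lymph node (log2 fold change -2.47, SE 0.31, edgeR adjusted p = 0.0352). Vsir (VISTA, in the table under the older symbol 4632428N05Rik) was at 43.1 and 131 CPM in skin against 178, 227 and 332 CPM in lymph node (edgeR adjusted p = 0.161). Tnfsf14 (LIGHT) did not pass (edgeR adjusted p = 0.123), and Cd276 and Vtcn1 had no count in any library.

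Downstream of CD28 and ICOS, 0 of 22 tested signalling genes were higher, 1 was lower and 21 did not pass in edgeR (median log2 fold change -0.27). At an unadjusted p under 0.05 there were 2 higher and 6 lower, and DESeq2 called 2 higher and 4 lower and limma-voom 2 higher and 3 lower. Over all tested genes those rates were 10.1% higher and 19.4% lower at the unadjusted p, and 10.8% higher and 17.7% lower by DESeq2. The 1 was Lck, the kinase that phosphorylates the antigen receptor complex and the tails of these receptors, at 1411 and 1765 CPM in skin against 2991, 2712 and 3031 CPM in lymph node (log2 fold change -0.87, SE 0.18, edgeR adjusted p = 0.0492). Its edgeR adjusted p was 0.0534 with DESeq2 size factors and 0.0586 with no filter on low counts. Grb2, an adaptor that binds the CD28 tail, was at 179 and 103 CPM in skin against 52.7, 35.9 and 32.7 CPM in lymph node (edgeR adjusted p = 0.0651). Pik3r1, the regulatory subunit of the phosphoinositide 3-kinase that both receptors recruit, was at 313 and 277 CPM in skin against 220, 270 and 235 CPM in lymph node (edgeR adjusted p = 0.468).

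Of the 5 genes for the phosphatases and kinase of the inhibitory receptors, edgeR called 0 higher and 0 lower, with 0 higher and 1 lower at an unadjusted p under 0.05 (median log2 fold change -0.03). DESeq2 called 0 higher and 1 lower, and limma-voom 0. Lower in skin were 19.4% of all tested genes at that unadjusted p and 17.7% by DESeq2. The 2 most abundant were Ptpn6 (SHP-1), at 329 and 382 CPM in skin against 492, 592 and 637 CPM in lymph node (edgeR adjusted p = 0.0986), and Ppp2r1a, a scaffold of protein phosphatase 2A, at 357 and 438 CPM in skin against 393, 378 and 444 CPM in lymph node (edgeR adjusted p = 0.950).

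In the list of genes for CTLA-4 traffic through the cell, 1 of 8 was higher, 0 lower and 7 not past the threshold in edgeR (median log2 fold change -0.42). At an unadjusted p under 0.05 there were 1 higher and 1 lower, and DESeq2 called 1 higher and 2 lower and limma-voom 1 higher and 0 lower. The rates over all tested genes were 2.4% higher and 5.3% lower in edgeR, and 10.1% and 19.4% at the unadjusted p. They were 10.8% and 17.7% by DESeq2, and 4.95% and 14.6% by limma-voom. Rab11a, the GTPase of recycling endosomes, was at 135 and 127 CPM in skin against 29.1, 28.9 and 32.6 CPM in lymph node (log2 fold change 2.12, SE 0.39, edgeR adjusted p = 0.0469, but 0.0620 with no filter on low counts). Lrba, whose product protects CTLA-4 from lysosomal breakdown, was at 18.2 and 69.3 CPM in skin against 64.8, 44.0 and 63.6 CPM in lymph node (edgeR adjusted p = 0.786). Def6, which works with RAB11 in that recycling, was at 18.9 and 12.7 CPM in skin against 74.0, 88.6 and 84.0 CPM in lymph node (edgeR adjusted p = 0.0536).

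None of the 3 mRNA decay factor genes passed the threshold in edgeR (0 at an unadjusted p under 0.05, and 0 by DESeq2 or limma-voom; median log2 fold change 0.64). Rc3h1, whose product Roquin-1 limits Icos mRNA in T cells, was at 68.7 and 233 CPM in skin against 77.5, 104 and 87.4 CPM in lymph node (edgeR adjusted p = 0.448). Rc3h2, its paralog, was at 54.7 and 130 CPM in skin against 63.8, 58.9 and 54.7 CPM in lymph node (edgeR adjusted p = 0.478).

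Of 11 transcription factor genes linked to the family, 1 was higher, 0 lower and 10 not past the threshold in edgeR (median log2 fold change 0.62). At an unadjusted p under 0.05 there were 4 higher and 1 lower, the same counts as by DESeq2, and limma-voom called 1 higher and 0 lower. Over all tested genes 10.1% were higher and 19.4% lower at that unadjusted p, and 10.8% higher and 17.7% lower by DESeq2. Maf, a factor of effector T cells that macrophages also express, was at 452 and 339 CPM in skin against 112, 65.7 and 104 CPM in lymph node (log2 fold change 2.07, SE 0.33, edgeR adjusted p = 0.0440). Tox, a factor linked to Pdcd1 expression in exhausted T cells, was at 901 and 645 CPM in skin against 416, 480 and 494 CPM in lymph node (edgeR adjusted p = 0.0905). Over all 59 tested genes of these pathway lists, 2 were higher (3.39%, against 2.4% of all genes tested) and 3 lower (5.08%, against 5.3%), shares near those of all genes.

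**Figure D5:**
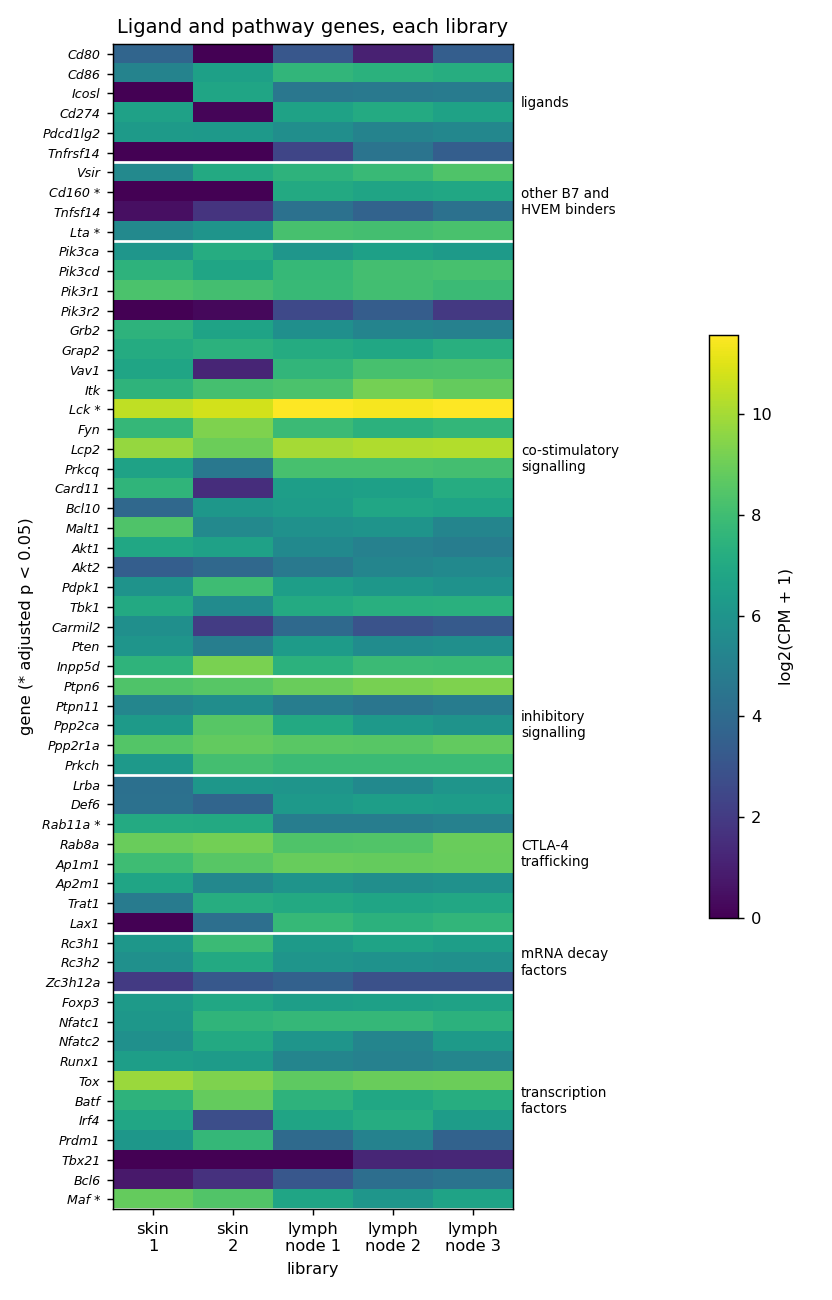
Level of the 59 tested ligand and pathway genes in each library as log2(CPM + 1), grouped by list, with an asterisk at the 5 called genes. Cd160 is at 0 in both skin libraries, and Icosl and Cd274 are each near 0 in 1 of them.

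For each member the 3 genes with the most similar profile were sought among 5605 genes, by the Euclidean distance between log2 CPM of the 5 libraries after removal of each gene's mean. For Icos these were Aldoa, the glycolytic enzyme aldolase A, at a distance of 0.10, Aldoart1 at 0.13 and Esyt1, a lipid transfer protein of membrane contact sites, at 0.15. Aldoart1 is a retrogene copy of Aldoa, and how reads were divided between them is uncertain. Aldoa was at 3590 ± 161 CPM in skin (SD, n = 2) and 803 ± 90.8 CPM in lymph node (SD, n = 3). For Ctla4 they were D17Wsu92e at 0.18, Akt1, a kinase downstream of CD28 and ICOS, at 0.21 and Maz at 0.23. Akt1 itself did not pass the threshold (117 and 96.8 CPM in skin against 43.3, 33.0 and 29.3 CPM in lymph node, edgeR adjusted p = 0.0763).

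For Cd28 the nearest profiles were those of Srp72, Acsl5 and Trim14 at 0.12 to 0.13. For Pdcd1 they were Ptger4, a prostaglandin E2 receptor, at 0.025, Atp5f1 at 0.11 and Rhog at 0.12. For Btla they were farther off, Zbtb24 at 0.49, Nol8 at 0.55 and Zufsp at 0.59, each lower in skin (edgeR adjusted p = 0.0370 to 0.0452). With 2 tissues and 5 libraries many genes share such a profile, and likeness here says nothing of shared control.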

How the data were processed

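HTSeq 0.6.1, TopHat2 2.0.12, CASAVA 1.8.2, SAMtools 0.1.19.0, Bowtie2 2.1.0.0 and build mm10 are named in the submitters' processing notes, without roles or options; whether counting used strand is not given there. Amplified cDNA was made with a SMARTer Ultra Low Input kit, per the labels' protocols, and no molecular identifiers are mentioned. The authors' deposited table holds raw counts per gene symbol, 1 column per library, under a header read as shifted by 1 cell. Its 5 HTSeq summary rows were left out of sizes and tests; reads not aligned uniquely made up 64.5 to 72.0% of all counts, genes 19.3 to 21.7%. Genes were filtered with filterByExpr (minimum count 10), scaled by TMM and tested with edgeR 4.0.16 (R 4.3.3, common dispersion 0.843). The code was first run on simulated counts with lower dispersion than these data, equal in both tissues. Error rates at the spread of these libraries were therefore not tested. Alternatives were limma 3.58.1 and DESeq2 1.42.0. SE is the log2 fold change over the square root of F. Count ratios used a pseudocount of 0.5. Members and lists were chosen with earlier results of these data known. Named were all members, all ligands, the called genes of each list or its 2 most abundant, and the 3 genes nearest each member; Raph1, Abi2, Grb2, Pik3r1, Vsir, Tnfsf14, Lrba, Def6 and Tox were added after their values were seen or for position. RefSeq synonyms matched 3 symbols listed under older names; Trdc was not matched.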

Additional observations from a re-analysis of the deposited data

How the results depend on the processing

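Ctla4, Icos and Btla kept direction in all 12 alternatives and an adjusted p under 0.05 in 8; Cd28 and Pdcd1 were called in 0. Leaving out 1 library in turn, log2 fold changes ranged from 1.62 to 1.85 for Ctla4, 2.03 to 2.17 for Icos, -4.02 to -3.68 for Btla, -4.63e-05 to 0.16 for Cd28 and -0.55 to 0.10 for Pdcd1; the lowest Cd28 and the highest Pdcd1 value came without skin library 1 and reversed the sign. The same fits called 0 to 6065 genes (0 to 2110 higher, 0 to 3955 lower) and 0 to 32 pathway genes (0 to 14 higher, 0 to 22 lower); 0 came without any 1 lymph node library, with 2361 to 2485 genes at an unadjusted p under 0.05 in edgeR and adjusted p of 0.113 or more. Log2 ratio differences ranged from 1.57 to 1.82 (Ctla4 to Cd28), 1.90 to 2.14 (Icos to Cd28), -0.44 to -0.25 (Ctla4 to Icos), -2.65 to -1.96 (Pdcd1 to Icos) and -4.00 to -3.82 (Btla to Cd28).

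Against 881 genes called (275 higher, 606 lower) and 5 pathway genes (2 higher, 3 lower), no low-count filter gave 315 (136 and 179) and 3 (1 higher), the stricter filter, with fewer genes tested, 1391 (419 and 972) and 5 lower pathway genes, DESeq2 3262 (1235 and 2027) and 20 (8 and 12), and limma-voom 2231 (566 and 1665) and 10 (4 and 6). The cause was not tested. Icosl turned to -3.41 with limma-voom, -3.01 with the replicate block and -11.36 without skin library 2, and was 2.14 without skin library 1. Cd80, at -0.02, turned to 0.17 and 0.47 without lymph node library 1 and 3 and to 0.97 without skin library 2, and was -9.37 without skin library 1.

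The labels do not say whether libraries with the same replicate number are paired. Deviations of same-numbered libraries correlated at -0.03 and -0.02 across genes. These values cannot decide it, since the deviations of the 2 skin libraries mirror each other. With the replicate number as a block, edgeR called 21 genes (11 higher, 10 lower) and 0 pathway genes, with log2 fold changes of 1.68 for Ctla4, 2.07 for Icos and -3.83 for Btla (edgeR adjusted p = 0.371, 0.260 and 0.121). The 15 most similar genes were the same 15 with DESeq2 size factors or a prior count of 0.5. Of 132 values of 11 other named genes, 93 kept side and sign, 23 lost and 10 gained a call and 6 turned. The lowest member count was 182, for Btla in skin library 2, and whether depth limits the calls was not tested.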
